A study of Homo sapiens with 32 samples.

Results

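The mitochondrially encoded mRNAs were read as the gene entries MT-ND1, MT-ND2, MT-ND3, MT-ND4, MT-ND5, MT-ND6, MT-CO1, MT-CO2, MT-CO3 and MT-CYB, 10 of the 32738 entries of a gene count table, chosen by symbol. Of these 10, 8 had counts and were tested, and MT-ND6 and MT-CYB were listed at 0 in every library. The cells were HEK293, a cultured human line derived from embryonic kidney, exposed to 4-thiouracil for 0, 5, 15 or 30 min, with 2 biological replicates (cultures) a time. The 32 libraries came from 2 cDNA preparations of each culture with 2 libraries apiece, and were summed to 8 cultures. 4-Thiouracil is a sulphur-bearing uracil used to tag RNA made during the incubation. The sample titles begin with TTSeq, and the labels name polyadenylated RNA and refer to published protocols. They do not spell out any purification of the tagged RNA or how the cells at 0 min were handled. Fell and rose below therefore describe counts in the libraries, which need not follow RNA levels in the cells. The labels give no genetic change, and all cultures are of 1 line. Nothing in them says whether the replicates came from separate starting cultures, so the p-values speak for these cultures only. Each p-value rests on a spread pooled over the 4 times and drawn toward that of other genes.

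Human mitochondria carry a small circular genome whose mRNAs encode core subunits of the respiratory chain. A dedicated RNA polymerase transcribes each strand as a long precursor, and the transfer RNAs between the genes are cut out to release the mRNAs. The members listed here, apart from MT-ND6, are made from the heavy-strand promoter, and MT-ND6 comes from the light strand. Most of these mRNAs receive a short poly(A) tail inside the mitochondrion, which completes the stop codon of several of them, whereas MT-ND6 mRNA is known to lack one. MT-ND1 to MT-ND6 encode subunits of complex I (NADH dehydrogenase), MT-CYB encodes cytochrome b of complex III, and MT-CO1 to MT-CO3 encode the catalytic core of complex IV (cytochrome c oxidase).

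4-Thiouracil that enters RNA takes the place of uracil, and its entry into the members' RNA was not measured here. The starts of 5 transcripts are shown with every T (U in the RNA) in capitals. They are the first 60 bases, 5′ to 3′, of the GENCODE 29 transcript models (GRCh38, chromosome M). MT-ND1 and MT-ND3 had the highest levels, MT-CO1 and MT-CO2 stand for complex IV, and MT-ND6 is the transcript of the other strand.
MT-ND1: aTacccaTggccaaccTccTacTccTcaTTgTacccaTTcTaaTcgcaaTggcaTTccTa
MT-ND3: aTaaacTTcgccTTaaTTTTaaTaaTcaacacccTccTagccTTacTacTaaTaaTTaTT
MT-CO1: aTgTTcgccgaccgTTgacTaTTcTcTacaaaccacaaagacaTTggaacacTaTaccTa
MT-CO2: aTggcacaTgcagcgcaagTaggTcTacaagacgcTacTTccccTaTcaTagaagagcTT
MT-ND6: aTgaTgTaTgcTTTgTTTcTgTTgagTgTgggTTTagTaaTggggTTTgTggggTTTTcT
Over its whole length the MT-ND6 model was 37.7% T, the highest share of the 10, and MT-ND3 followed at 30.3%. The other 8 held between 23.8% (MT-ND1) and 26.7% (MT-CO3). In the annotation the order along the strand read as the mRNA is MT-ND1, MT-ND2, MT-CO1, MT-CO2, MT-CO3, MT-ND3, MT-ND4, MT-ND5 and MT-CYB, with MT-ND6 between MT-ND5 and MT-CYB on the other strand. Positions are not given because the counts were made on hg19.

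Culture totals ranged from 776871 to 1396056 counts, and the tested members held 557 (MT-CO1, culture 1 at 5 min) to 8150 counts (MT-ND1, culture 1 at 30 min). The make-up of all counts differed between 0 min and the later times, so 2 scales are used. TMM-scaled CPM sets the bulk of genes level between cultures, and CPM of the total divides by all counts of a culture. Over all 10439 tested genes the median log2 fold change against 0 min was 0.10 at 5 min, 0.19 at 15 min and 0.35 at 30 min with TMM, and 0.83, 0.96 and 1.22 with total counts. Fold changes below are log2 values with TMM unless stated, and shares of all genes called are for TMM only. Of 6 HEK293 markers, VIM and CDH2 were present in every culture, the lowest level being 55.8 CPM of the total, whereas PAX2, SOX11, LHX1 and NEFM stayed at or below 13.4 (NEFL was not analysed here). The 6 summed to 332 to 436 CPM of the total at 0 min and to 548 to 707 at the later times, with VIM at -0.86 and CDH2 at 1.26 on the log2 scale at 30 against 0 min (0.014 and 2.13 with total counts). The part of this shift in the results below was not tested. Of 8 markers of other cell types, 6 (ALB, AFP, HBG1, HBG2, PTPRC and CD3E) were at 0 in all cultures, and the 8 summed to at most 7.72 CPM of the total. In these bulk samples fewer cells and less RNA per cell cannot be told apart.

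The members' share of all counts was close to level up to 15 min and higher at 30 min. It was 1.42% and 1.51% in the 0 min cultures, 1.45% and 1.18% in those of 5 min, 1.49% and 1.55% in those of 15 min, and 2.47% and 2.14% in those of 30 min. Both 30 min cultures lay above the other 6. The means were 1.46% ± 0.0624, 1.31% ± 0.194, 1.52% ± 0.0365 and 2.31% ± 0.237 at 0, 5, 15 and 30 min (SD, n = 2 each). No p-value is given for sums over the members, and with 2 cultures against 2 an exact permutation test cannot go below p = 0.333.

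At 5 min against 0 min, 4 of the 8 tested members fell and 0 rose, by edgeR's quasi-likelihood test with Benjamini-Hochberg adjustment at 0.05. The members that fell were MT-ND1, MT-ND3, MT-ND5 and MT-CO1. Over all tested genes 26.0% were called lower and 28.7% higher in that comparison. At unadjusted p under 0.05 the members again gave 4 lower and 0 higher, and DESeq2 also gave 4 and 0. The members' median was -0.66. With total counts the median was 0.08, beside 0.83 over all genes. On that scale 2 members were lower (MT-ND1 and MT-ND3) and 3 higher (MT-ND2, MT-CO2 and MT-ND4). The 3 comparisons with 0 min share the 0 min cultures, so their values are given side by side only.

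MT-ND1, a subunit of the membrane arm of complex I next to the quinone site, had 5389 and 6052 TMM-scaled CPM in the 0 min cultures, 2088 and 2206 at 5 min, 2779.8 and 3449 at 15 min, and 4895 and 4810.5 at 30 min. The cultures of the 4 times did not overlap, in the order 5, 15, 30 and 0 min from low to high. The log2 fold change was -1.41 ± 0.20 (SE; adjusted p = 1.94e-07) at 5 min and -0.88 ± 0.19 (adjusted p = 0.000255) at 15 min against 0 min, both past edgeR's test. At 30 min it was -0.24 ± 0.19 against 0 min, not past the test. It was 0.65 with total counts and -0.41 with DESeq2, both past their test. Against 5 min MT-ND1 rose at 30 min by 1.18 ± 0.20 (edgeR, adjusted p = 8.10e-05), and by 1.32 with total counts.

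MT-ND3, a small membrane subunit of complex I, had 6401 and 7204 TMM-scaled CPM at 0 min, 3047 and 2239.6 at 5 min, 2641 and 3496 at 15 min, and 3336 and 3066 at 30 min. Both 0 min cultures lay above the other 6, which overlapped between neighbouring times. MT-ND3 fell in all 3 comparisons with 0 min, by 1.36 ± 0.21 at 5 min, 1.15 ± 0.21 at 15 min and 1.09 ± 0.21 at 30 min (SE; edgeR, adjusted p at most 2.93e-05). With total counts the value at 30 min was -0.20 and did not pass the test. Its value at 30 min against 5 min was 0.28 ± 0.20 (edgeR, adjusted p = 0.419).

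MT-ND5, a large proton-pumping subunit of complex I, had 3281 and 3139 TMM-scaled CPM at 0 min, 1658 and 1550.1 at 5 min, 2097 and 2328 at 15 min, and 2225 and 2336 at 30 min. The 5 min cultures were the lowest and the 0 min cultures the highest, while 15 and 30 min overlapped. Against 0 min MT-ND5 fell by 1.00 ± 0.19 at 5 min (edgeR, adjusted p = 2.20e-05), by 0.54 ± 0.18 at 15 min (0.0135) and by 0.49 ± 0.18 at 30 min (0.0220). Total counts turned the direction at 15 min (0.24) and 30 min (0.39). The call at 30 min was lost without either 0 min culture or either 30 min culture (adjusted p 0.0699 to 0.184) and with no filter on low counts (0.0528), and the call at 15 min without either 0 min culture (0.0913 without culture 1 and 0.0515 without culture 2).

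The remaining complex I members passed no test with TMM at 5 or 15 min. MT-ND2, a membrane subunit, had 1255 and 1474 TMM-scaled CPM at 0 min, 1487 and 1005 at 5 min, 1006 and 1099 at 15 min, and 2327 and 1640.2 at 30 min. The 30 min cultures were the highest, and the other times overlapped where they neighboured each other. MT-ND2 rose at 30 min, by 0.54 ± 0.20 against 0 min (edgeR, adjusted p = 0.0228) and by 0.67 ± 0.20 against 5 min (0.0238). MT-ND4, a proton-pumping subunit, ranged between 1711 and 2966 TMM-scaled CPM, its neighbouring times overlapped, and it passed no test with TMM. With total counts MT-ND4 rose in all 3 comparisons with 0 min, by 0.82, 0.69 and 1.29. The medians over all genes on that scale were 0.83, 0.96 and 1.22.

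**Figure D1:**
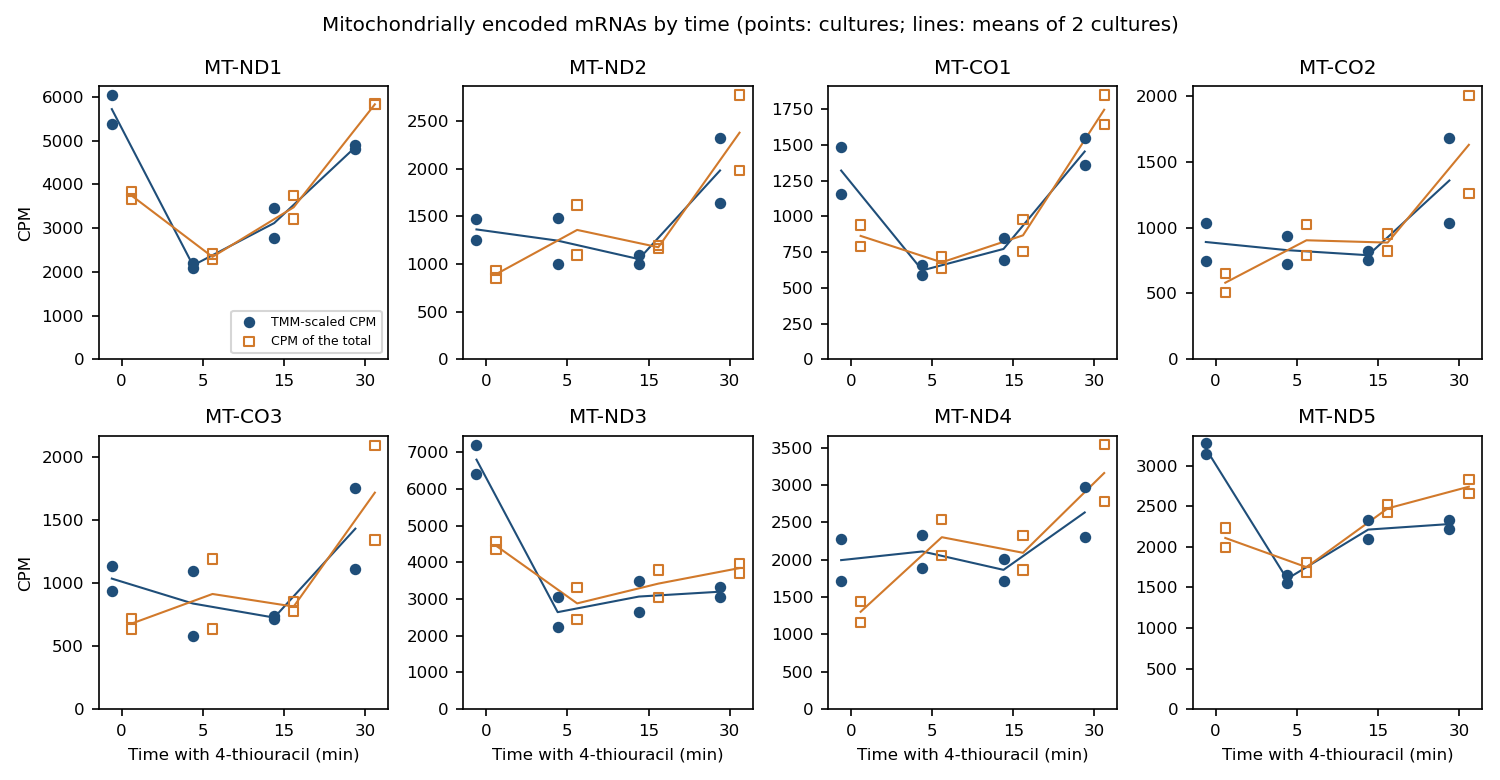
Levels of the 8 members with counts, in the order of the genome. The horizontal axis is the time with 4-thiouracil in min, and the vertical axis is CPM, with filled circles for TMM-scaled CPM, open squares for CPM of the total, 1 point for each culture and lines through the means of 2. The means of MT-ND1, MT-CO1, MT-ND3 and MT-ND5 are lower at 5 min than at 0 min on both scales, and on the total scale MT-ND3 is the member whose mean at 30 min stays below that at 0 min.

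Of the complex IV members, MT-CO1 carries the site where oxygen is reduced. It had 1158 and 1483 TMM-scaled CPM at 0 min, 657 and 586 at 5 min, 849 and 695 at 15 min, and 1550.0 and 1357 at 30 min. The 5 and 15 min cultures lay below the 0 and 30 min cultures, which overlapped each other. Against 0 min MT-CO1 fell by 1.09 ± 0.19 at 5 min (edgeR, adjusted p = 8.66e-06) and by 0.77 ± 0.19 at 15 min (0.000672), with total-count values of -0.34 and 0.02 that did not pass. Its value at 30 min was 0.14 ± 0.18 against 0 min, not past the test, with 1.03 (past it) for total counts and -0.034 for RLE size factors. Against 5 min it rose at 30 min by 1.23 ± 0.19 (edgeR, adjusted p = 2.12e-05), and by 1.37 with total counts.

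MT-CO2, which takes electrons from cytochrome c, had 749 and 1033 TMM-scaled CPM at 0 min, 937 and 722 at 5 min, 824 and 758 at 15 min, and 1679 and 1039 at 30 min. The first 3 times overlapped and the second 30 min culture stood just above the higher 0 min culture. MT-CO2 rose at 30 min, by 0.61 ± 0.21 against 0 min (edgeR, adjusted p = 0.0125) and by 0.72 ± 0.21 against 5 min (0.0184). MT-CO3, the third core subunit, had 935 and 1138 TMM-scaled CPM at 0 min, 1094 and 584 at 5 min, 741 and 713 at 15 min, and 1757 and 1110.25 at 30 min. The 30 min cultures lay above those of 5 min and overlapped those of 0 min. It rose by 0.78 ± 0.22 against 5 min (edgeR, adjusted p = 0.0175) and did not pass the test against 0 min (0.47 ± 0.22, adjusted p = 0.0728).

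At 15 min against 0 min the count was again 4 members fell (MT-ND1, MT-ND3, MT-ND5 and MT-CO1) and 0 rose by edgeR's test, where 24.6% of all genes were called lower and 29.8% higher. At unadjusted p under 0.05 the members gave 5 lower and 0 higher, and DESeq2 gave 5 and 0. The median was -0.52, and 0.26 with total counts, where 1 member fell and 3 rose and the median over all genes was 0.96. At 30 min against 0 min, 2 members fell (MT-ND3 and MT-ND5) and 2 rose (MT-ND2 and MT-CO2), beside 23.8% of all genes called lower and 32.1% higher. The median was 0.27, below the 0.35 of all genes. Total counts gave 7 that rose and 0 that fell there, with a members' median of 1.16 beside 1.22 over all genes. RLE size factors and DESeq2 gave 0 that rose. The 2 rises were also lost without culture 1 at 0 min (MT-ND2 0.45, MT-CO2 0.42) or without culture 1 at 30 min (0.29 and 0.25).

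Between 30 and 5 min, the comparison least touched by the scaling, 5 members rose at 30 min (MT-ND1, MT-ND2, MT-CO1, MT-CO2 and MT-CO3) and 0 fell by edgeR's test, where 5.88% of all genes were called higher and 6.52% lower. At unadjusted p under 0.05 the members gave 6 higher and 0 lower, and DESeq2 gave 5 and 0. The median was 0.69 with TMM and 0.84 with total counts, where 6 rose, against medians over all genes of -0.03 and 0.11. Without culture 2 at 5 min, or without culture 1 at 30 min, the count was 2, with MT-ND1 and MT-CO1 past the test. The rises of MT-ND2, MT-CO2 and MT-CO3 thus rested on those cultures, at 0.40 to 0.54 without culture 2 at 5 min and 0.33 to 0.42 without culture 1 at 30 min. MT-ND2 also lost the call with RLE size factors (adjusted p = 0.0504) and MT-CO3 with DESeq2 (0.283).

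**Figure D2:**
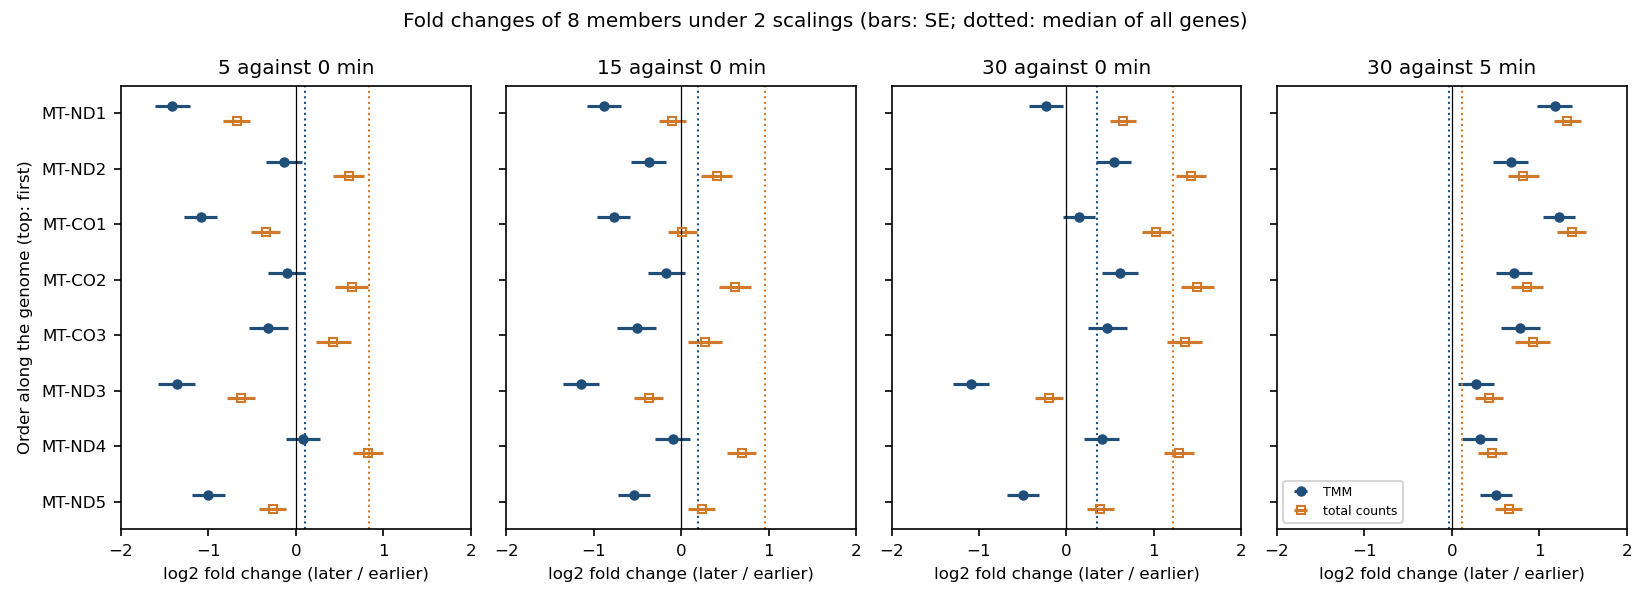
Log2 fold changes (later over earlier, horizontal axis) of the 8 tested members, listed from the first to the last in the genome, in each of the 4 comparisons. Circles are TMM and squares total counts, bars are the SE, and dotted lines are the medians of all genes on each scale. Against 0 min the scaling shifts every member and turns the direction of several, while at 30 against 5 min all 8 are above 0 on both scales, 5 of them past the test with TMM.

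Ratios between members do not depend on the scaling. Complex I members took 85.5% ± 1.23, 81.1% ± 1.89, 83.1% ± 2.45 and 78.0% ± 2.96 of the members' summed counts at 0, 5, 15 and 30 min, and complex IV members the remaining 14.5%, 18.9%, 16.9% and 21.95% (SD, n = 2 each). MT-ND3 was the largest single member at 0 min, with 30.7% and 30.3% of the sum in the 2 cultures, and took 22.9% and 20.8% at 5 min, 20.4% and 24.5% at 15 min and 16.1% and 17.4% at 30 min. Its share was lower in both 30 min cultures than in both 0 min cultures. MT-ND4 moved the other way between 0 and 5 min, with 8.20% and 9.56% at 0 min, 17.5% in each 5 min culture, 15.5% and 12.04% at 15 min, and 14.3% and 13.01% at 30 min. The shares of MT-ND2, MT-CO1, MT-CO2, MT-CO3 and MT-ND4 were higher in both 30 min cultures than in both 0 min cultures. MT-ND1 held 25.6% ± 0.269, 18.1% ± 3.37, 22.8% ± 1.93 and 25.4% ± 2.57 at the 4 times in order.

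**Figure D3:**
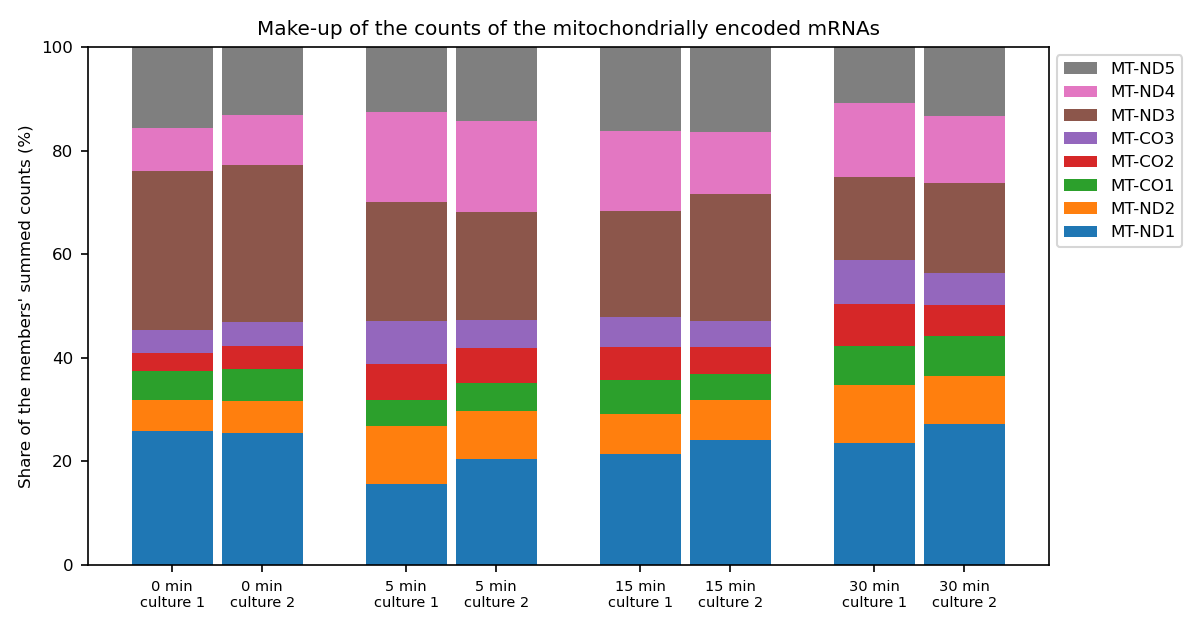
Share of each member in the summed counts of the mitochondrially encoded mRNAs (vertical axis, %), 1 bar for each culture, stacked in the order of the genome. The MT-ND3 band takes 30.7% and 30.3% at 0 min and 16.1% and 17.4% at 30 min, and the MT-ND4 band widens to 17.5% at 5 min.

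Position along the strand was read with the first genes, MT-ND1 and MT-ND2, over the last with counts, MT-ND5. The log2 ratio of counts was 1.02 and 1.26 in the 0 min cultures, 1.11 and 1.05 at 5 min, 0.85 and 0.97 at 15 min, and 1.70 and 1.47 at 30 min. It was highest in both 30 min cultures and lowest in both 15 min cultures. Across the 8 tested members, order along the genome and the fold change at 30 against 5 min correlated at Pearson r = -0.76 (Spearman -0.69). With MT-ATP6, MT-ATP8 and MT-ND4L added, over 11 genes, it was -0.54 (Spearman -0.47), and over the 8 members it was -0.32 at 30 against 0 min and 0.12 at 5 against 0 min. Against transcript length the fold change at 30 against 5 min correlated at 0.18 over the 8 members and 0.44 over the 11 genes, and against the T share at -0.43 and 0.03. The level per kb at 0 min (log2 CPM) correlated with the fold change against 0 min at -0.64, -0.73 and -0.83 at 5, 15 and 30 min over the 8 members, a pair of measures that share the 0 min cultures. These are descriptions over few genes that share the libraries and the precursor.

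Levels are compared between genes as CPM of the total per kb of the annotated transcript. MT-ND3 was the highest at every time, with 12881 ± 435 at 0 min and 11115 ± 545 at 30 min (SD, n = 2 each), and MT-ND1 the next, with 3920.5 ± 126 at 0 min and 6099 ± 10.4 at 30 min. Below them at 0 min came MT-ND5 (1164 ± 94.5), MT-ND4, MT-CO3, MT-ND2 and MT-CO2, of which the last 4 overlapped between neighbours, and then MT-CO1 at 559.7 ± 69.8. MT-CO1 stayed the lowest at all 4 times, with 1132 ± 94.6 at 30 min. At 30 min MT-CO2, MT-ND4, MT-ND2 and MT-CO3 lay between 2383 and 2194 and their cultures overlapped, and MT-ND5 was next at 1513 ± 68.0. Outside the members, MT-ND4L lay above MT-ND1, with 8901 ± 438 at 0 min and 8412 ± 1081 at 30 min. MT-ATP8 had 2301 ± 85.4 and 2362 ± 218, and MT-ATP6 836 ± 28.0 and 1411 ± 305. MT-ATP8 (207 bases), MT-ND4L (297) and MT-ND3 (346) are the shortest of these transcripts. The sources used here do not say which stretch of a transcript was counted, so values per kb need not follow molecules.

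MT-CYB and MT-ND6 had 0 counts in each of the 32 libraries. A count of 0 allows up to 3 counts, which is 2.15 to 3.86 CPM of the total in a culture and 0.308 over all cultures together. For MT-ND6 the same limit is 0.00869% to 0.0266% of the members' summed counts in a culture. The limits cover counting error only. MT-CYB is on the same strand as the 8 counted members, and the source of the 0 of either gene was not tested. No value for cytochrome b or for the light strand can therefore be set beside the rest.

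Of the other mitochondrially encoded genes in the table, MT-ATP6 and MT-ATP8 encode subunits of the ATP synthase and MT-ND4L a complex I subunit. Their annotated genes overlap neighbours: MT-ATP8 shares 46 bases with MT-ATP6, MT-ND4L shares 7 with MT-ND4, and MT-ATP6 shares 1 with MT-CO3. Reads in those bases cannot be assigned with certainty. Overlapping neighbours differed at 5 against 0 min, with -1.44 for MT-ND4L beside 0.08 for MT-ND4. MT-ATP8 had -0.88 there beside -0.18 for MT-ATP6. The source of these differences was not tested, so a value per gene need not follow the level of an mRNA. MT-ND4L averaged 4027 ± 2.45, 1479 ± 80.5, 2130.3 ± 362 and 2078 ± 245 TMM-scaled CPM at 0, 5, 15 and 30 min (SD, n = 2 each). It fell against 0 min by 1.44 at 5 min, 0.92 at 15 min and 0.95 at 30 min (edgeR, adjusted p at most 0.000113), and with total counts only at 5 min. MT-ATP8 fell by 0.88, 0.79 and 0.83 (edgeR, adjusted p at most 0.000281), none of which passed with total counts, where the value at 30 min was 0.05. MT-ATP6 fell at 15 min only (-0.48, edgeR, adjusted p = 0.0360), a call lost without either 0 min culture (adjusted p 0.0630 and 0.208), without culture 1 at 15 min (0.142) without either 30 min culture (0.0607 and 0.0634) and with no filter on low counts (0.0685), and total counts turned it to 0.30.

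Most nuclear mRNAs for subunits of the same complexes fell in the 3 comparisons with 0 min, and no test of the lists against each other was made. At 30 min against 0 min all 33 tested nuclear complex I subunit mRNAs fell (of 37 in the table, median -2.18, range -2.95 to -0.85). So did all 11 for complex IV (median -2.23) and 7 of 8 for complex III (median -2.09). Of all tested genes 23.8% were called lower there. The members' values in that comparison ran from -1.09 to 0.61. With total counts 31 of 33, 11 of 11 and 6 of 8 fell (medians -1.30, -1.35 and -1.21). Among the most abundant, NDUFB2, an accessory subunit of complex I, fell to 343 TMM-scaled CPM at 30 min, against 1545 at 0 min (-2.17 ± 0.19, edgeR, adjusted p = 1.03e-11). COX7A2, a small subunit of complex IV, fell to 704 at 30 min, against 3308 at 0 min (-2.23 ± 0.20, edgeR, adjusted p = 2.83e-11). UQCRH, the hinge protein of complex III, fell to 536, against 2799.55 at 0 min (-2.39 ± 0.20, edgeR, adjusted p = 4.58e-12). The other abundant ones, NDUFS5, COX7C and UQCRQ, had -2.06, -2.03 and -2.33, all past the test.

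At 5 min against 0 min 32 of 33 nuclear complex I, 8 of 8 complex III and 10 of 11 complex IV subunit mRNAs fell (medians -1.44, -1.49 and -1.34), beside the members' median of -0.66. At 15 min against 0 min all 33, 8 and 11 tested fell (medians -1.40, -1.34 and -1.36), beside -0.52. Of all tested genes 26.0% were called lower at 5 min and 24.6% at 15 min. With total counts 22 of 33, 7 of 8 and 10 of 11 fell at 5 min (medians -0.70, -0.76 and -0.60) and 22 of 33, 6 of 8 and 8 of 11 at 15 min (medians -0.63, -0.57 and -0.59). At 30 min against 5 min, where 5 members rose, 21 of 33 complex I mRNAs fell (median -0.71). So did 3 of 8 for complex III (-0.44) and 10 of 11 for complex IV (-0.84). Of all tested genes 6.52% were called lower and 5.88% higher there. In complex III 1 mRNA rose there, UQCRFS1, the Rieske iron-sulphur protein (1.08 ± 0.27, edgeR, adjusted p = 0.00633), named after its value was seen. That call was lost without culture 2 at 5 min (edgeR, adjusted p = 0.145) and without culture 2 at 30 min (0.0720). The counts that fell at 30 against 5 min depended on single cultures. For complex I the count was 8 without culture 2 at 30 min, 13 without culture 1 at 30 min, 10 without culture 2 at 5 min and 14 without culture 1 at 5 min, and for complex IV it was 1 without culture 2 at 30 min. For complex III it was 1 without culture 2 at 30 min or culture 2 at 5 min.

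**Figure D4:**
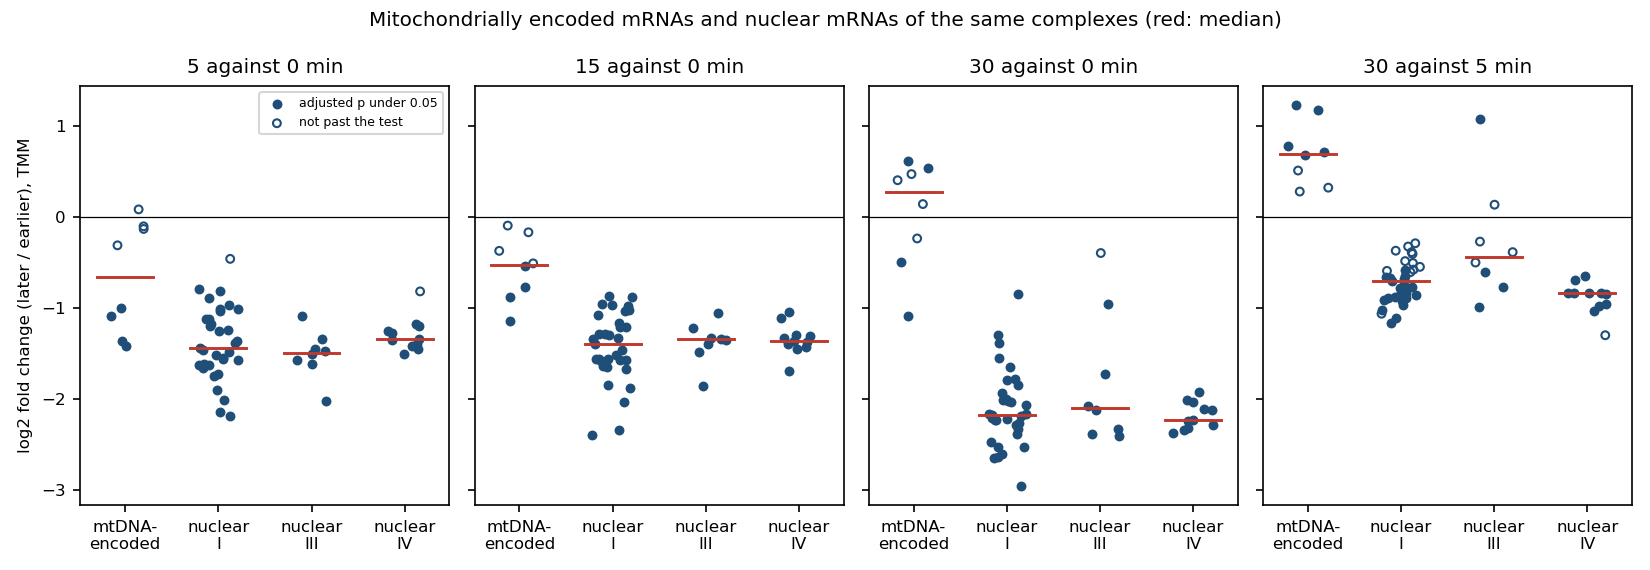
Log2 fold changes (later over earlier, TMM, vertical axis) of the mitochondrially encoded mRNAs and of the nuclear mRNAs for complexes I, III and IV in 4 comparisons. Each point is a gene, filled where adjusted p was under 0.05, and red lines are medians. At 30 against 0 min the members lie between -1.09 and 0.61 and the nuclear complex I mRNAs between -2.95 and -0.85.

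The ratio of mitochondrially encoded to nuclear-encoded subunit counts, which no scaling between cultures changes, was highest at 30 min. For complex I, over the 5 counted members and so without MT-ND4L, it was 0.828 and 0.824 in the 0 min cultures, 1.18 and 1.01 at 5 min, 1.34 and 1.21 at 15 min, and 2.90 and 2.84 at 30 min. For complex IV it was 0.155 and 0.178 at 0 min, 0.329 and 0.258 at 5 min, 0.358 and 0.249 at 15 min, and 1.12 and 0.887 at 30 min. In both complexes all later cultures lay above both 0 min cultures, and both 30 min cultures lay above the rest. With MT-ND4L added, an alternative chosen after seeing the data, the complex I ratio averaged 1.001 ± 0.0167, 1.26 ± 0.103, 1.51 ± 0.0867 and 3.27 ± 0.0311 at 0, 5, 15 and 30 min (SD, n = 2 each). The ratio sums over 37 nuclear genes for complex I and 11 for complex IV without regard to transcript length, so its level is not a ratio of molecules.

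**Figure D5:**
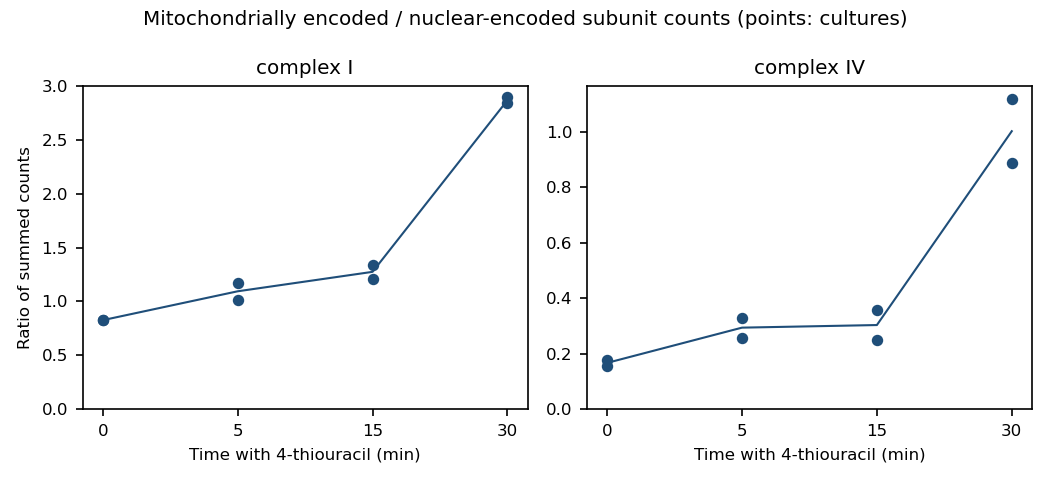
Ratio of summed counts, mitochondrially encoded over nuclear-encoded subunits (vertical axis), against the time with 4-thiouracil in min, for complex I and complex IV. Points are cultures and lines the means of 2. The complex I sum leaves out MT-ND4L. Its ratio is 2.87 ± 0.0407 at 30 min, against 0.826 ± 0.00265 at 0 min, and the complex IV ratio 1.00 ± 0.162 at 30 min, against 0.167 ± 0.0166 at 0 min.

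Among 13 nuclear genes for transcription and replication of the mitochondrial genome, 4 fell and 2 rose at 5 min against 0 min. At 30 min against 0 min 2 fell and 2 rose. The shares of all genes called were 26.0% lower and 28.7% higher at 5 min, and 23.8% and 32.1% at 30 min. With total counts 1 of the 13 fell and 6 rose at 5 min, and 1 fell and 9 rose at 30 min. The medians over all genes on that scale were 0.83 and 1.22. TFAM, which packages the genome and activates its promoters, fell to 125 TMM-scaled CPM at 5 min, against 277 at 0 min (-1.15 ± 0.20, edgeR, adjusted p = 6.23e-06), and with total counts the value was -0.42 and did not pass. At 30 min it was -0.84 ± 0.19 against 0 min (edgeR, adjusted p = 0.000261), and 0.03 with total counts. SSBP1, the single-strand binding protein of mitochondrial replication, fell by 1.50 ± 0.19 at 5 min and fell by 2.44 ± 0.19 at 30 min (edgeR, adjusted p = 2.68e-08 and 1.52e-12), and with total counts too (-0.76 and -1.56).

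Of 20 tested genes for mitochondrial RNA processing and stability (22 in the table), 4 fell and 4 rose at 5 min against 0 min. At 30 min against 0 min 5 fell and 5 rose. Among all genes 26.0% were called lower and 28.7% higher at 5 min, and 23.8% and 32.1% at 30 min. With total counts 3 of the 20 fell and 11 rose at 5 min, and 1 fell and 13 rose at 30 min. The medians over all genes on that scale were 0.83 and 1.22. SLIRP, an RNA-binding protein that stabilises mitochondrial mRNAs, fell by 1.34 ± 0.19 at 5 min and 2.22 ± 0.20 at 30 min (edgeR, adjusted p = 3.83e-07 and 1.83e-11). LRPPRC, its partner in that complex and named after its values were seen, rose by 1.94 ± 0.21 and 1.50 ± 0.21 (edgeR, adjusted p = 1.54e-09 and 2.06e-07). TRMT10C, part of the mitochondrial RNase P that cuts transfer RNAs from the precursor, fell to 126 TMM-scaled CPM at 5 min, against 325 at 0 min (-1.36 ± 0.19, edgeR, adjusted p = 2.76e-07). At 30 min it rose to 485, against 126 at 5 min (1.93 ± 0.19, edgeR, adjusted p = 1.94e-09).

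The members differed in how closely they followed each other. Over the 8 cultures the Pearson r of log2 TMM-scaled CPM between 2 members ran from -0.14 (MT-ND4 and MT-ND5) to 0.97 (MT-ND2 and MT-CO3), with a median of 0.64 over 28 pairs that share the same libraries. The 5 nuclear genes with the profile most like the members' mean, out of 4299 genes at 50 CPM or more on average, were CIRBP (r = 0.94), MED10 (0.94), DDX3X (0.94), PTBP1 (0.94) and IDI1 (0.93). IDI1, an isomerase of the sterol pathway, averaged 833 ± 0.929, 255 ± 10.4, 271 ± 50.3 and 817 ± 93.5 TMM-scaled CPM at 0, 5, 15 and 30 min (SD, n = 2 each). DDX3X, an RNA helicase, averaged 296 ± 8.95, 121 ± 25.5, 136 ± 32.2 and 245 ± 30.8 at the same times. The members' mean log2 TMM-scaled CPM was 11.05, 10.37, 10.49 and 11.08 at the 4 times in order. The 5 genes were picked for likeness to that mean in these cultures, so the shared shape follows from the choice. The shape also depends on the scale, as the members' share of all counts was 1.46%, 1.31%, 1.52% and 2.31%.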

How the data were processed

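The authors deposited whole-number counts per gene for 32 libraries, made on hg19 with the aligner STAR, as the submitters' processing notes name them. Its version, the strand counted and the use of molecular identifiers are not given in the sources used here. Barcodes tied columns to samples. Counts were summed over the 4 libraries of a culture. Libraries of 1 cDNA differed by less than the noise of sampling (chi-square over its degrees of freedom, 0.327 to 0.594 in 16 pairs). They were thus not independent samples, and summed counts may overstate the depth. Libraries of different cDNA of 1 culture differed by more than that noise (1.14 to 2.29 in 32 pairs) and were summed as preparations of 1 culture. Cultures held 776871 to 1396056 counts. Times were compared with edgeR 4.0.16 in R 4.3.3 (quasi-likelihood F test, TMM, filterByExpr, time as the only factor, 10439 genes, Benjamini-Hochberg at 0.05). A test on simulated data came first. It changed a small set of genes at 5 min, up or down at random, without the shift in make-up seen against 0 min. That test therefore does not bear on the choice of scaling. The SE of a fold change was computed back from the F test. Alternatives were total counts, RLE, DESeq2 1.42.0, no filter, a replicate block, leaving out each culture, and 1 library per cDNA. Order, strand, length and sequence came from GENCODE 29 (GRCh38). The members and lists were chosen with earlier results of these data known. The text names all members, the 2 most abundant tested genes of each list, and the 5 genes most alike (log2 with 1 added).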

Additional observations from a re-analysis of the deposited data

How the results depend on the processing

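Over the 8 members, MT-ATP6, MT-ATP8 and MT-ND4L, 616 values under alternatives gave 508 with the same direction and side of the threshold, 37 that lost the call, 34 that gained one and 37 that turned direction. Total counts as the only scaling turned MT-ND2 (0.61), MT-CO2 (0.64), MT-CO3 (0.43) and MT-ATP6 (0.56) at 5 min, and MT-ND2 (0.41), MT-CO1 (0.015), MT-CO2 (0.62), MT-CO3 (0.27), MT-ND4 (0.69), MT-ND5 (0.24) and MT-ATP6 (0.30) at 15 min, all against 0 min. At 30 min against 0 min it turned MT-ND1 (0.65), MT-ND5 (0.39), MT-ATP6 (0.76) and MT-ATP8 (0.047). The members called lower and higher were then 2 and 3 at 5 min, 1 and 3 at 15 min, and 0 and 7 at 30 min. On that scale the medians over all genes were 0.83, 0.96 and 1.22. RLE and DESeq2 each turned MT-CO1 at 30 against 0 min (-0.034 each) and, at 30 against 5 min, MT-ATP6 (-0.041 with RLE and -0.043 with DESeq2) and MT-ATP8 (-0.058 each), and each gave 0 members higher at 30 against 0 min. With no filter 1 member was lower and 4 higher there. Beyond the change of scale itself, the cause was not tested.

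Leaving out 1 culture gave ranges that cross 0 at 5 against 0 min for MT-ND2 (-0.41 to 0.15), MT-CO2 (-0.30 to 0.17), MT-CO3 (-0.80 to 0.10), MT-ND4 (-0.085 to 0.32) and MT-ATP6 (-0.41 to 0.070), at 15 against 0 min for MT-CO2 (-0.36 to 0.11) and MT-ND4 (-0.26 to 0.15), at 30 against 0 min for MT-CO1 (-0.0029 to 0.35) and MT-ATP6 (-0.34 to 0.12), and at 30 against 5 min for MT-ATP6 (-0.19 to 0.32) and MT-ATP8 (-0.059 to 0.15). The lone culture left is then assumed to vary like the other times. The members called lower at 30 against 0 min numbered 1 to 2 and those higher 0 to 4, and those higher at 30 against 5 min 2 to 6. With the replicate block 43 of 44 values kept direction and side, with MT-CO3 at 15 against 0 min (-0.53) gaining the call, and the members called were 4, 5 and 2 lower against 0 min and 5 higher at 30 against 5 min. The deviations of same-numbered cultures correlated at -0.11 to 0.17 over 6 pairs of times, 2 of them above 0.1, so the numbers were not used to pair cultures. With 1 library per cDNA the members' share at 15 min was 1.56%, and 2 members had a lower share of the sum in both 30 min cultures than in both 0 min cultures, where all libraries gave 1. For MT-CYB alone, and for MT-ND6 against the other strand, no ratio could be computed. The ratios to nuclear counts and the alternatives for the nuclear lists were chosen after seeing the data.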

Other observations

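The table holds 13 MTRNR2L entries, nuclear genes that resemble the mitochondrial 16S ribosomal RNA gene. Together they had 15 and 14 counts in the 0 min cultures, 7 and 2 at 5 min, 7 and 18 at 15 min, and 33 and 20 at 30 min. MTRNR2L6, named after its values were seen, had 0 counts in the 6 cultures up to 15 min except 1 count in culture 2 at 15 min, and 13 and 9 counts at 30 min. These entries were not tested, and reads of a near-identical copy may be split between them.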
